A study of Mus musculus with 30 samples.

Results

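The genes described here are 10 transcription factors and cofactors that set and maintain B cell identity and carry B cells through their later stages: Pax5, Ebf1, Pou2af1, Spib, Bach2, Bcl6, Irf4, Irf8, Prdm1 and Xbp1. They were chosen by name, from a list of B lineage regulators, out of 19938 genes with a probe set of their own, and all 10 were measured, each by 1 probe set. The study hybridised total RNA of whole spleens and lymph nodes of 15 mice to 30 Affymetrix Mouse Gene 1.0 ST arrays, 1 spleen and 1 node array for each mouse. Tg26 mice carry an HIV-1 provirus (pNL4-3) from which part of gag-pol was removed, so that no infectious virus is made, and about 15% of them develop lymphoma. The 6 lymphoma mice and the 6 asymptomatic mice were Tg26 heterozygotes, and the 3 control mice were FVB/N, the strain that all groups share. Animals were killed at 5 to 12 months of age, and the lymphoma colony descended from crosses between heterozygotes with skin lesions. Mice 1 to 3 of each state were labelled batch A and mice 4 to 6 of both Tg26 states batch B, so that all FVB/N arrays are in batch A.

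Pax5 and Ebf1 switch on the genes of the B cell programme and hold other lineages off, and Pou2af1 (OCA-B) and Spib work beside them as a cofactor of octamer-binding proteins and as an Ets factor related to PU.1. Bach2 and Bcl6 are repressors that keep activated and germinal centre B cells from becoming plasma cells, whereas Irf4, Prdm1 (Blimp-1) and Xbp1 take B cells towards the plasma cell, with Blimp-1 shutting off the B cell programme and Xbp1 enlarging the secretory machinery. Irf4 and Irf8 are related factors that act at several B cell stages, and Irf8 also belongs to the germinal centre programme and to dendritic cells.

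The deposited values are log2 expression levels, so that a difference of 1 is a doubling of the level, and levels of different genes are not set against each other because each has its own probes. Array medians lay between 6.67 and 6.89. Genes of early B precursors averaged 9.04 to 10.12 on the 12 lymphoma arrays, against 7.01 to 7.72 on asymptomatic and 7.03 to 7.41 on FVB/N arrays, with no overlap. T cell genes averaged 6.02 to 7.71 on lymphoma, 8.83 to 10.75 on asymptomatic and 9.23 to 10.87 on FVB/N arrays. Genes of salivary gland, pancreas, fat or muscle stood more than 1 log2 unit above the median array on 1 of 6 lymphoma nodes, 5 of 6 asymptomatic nodes and 2 of 3 FVB/N nodes, and on 2 of 6 asymptomatic spleens. Lymph node genes averaged 5.69 to 6.88 in lymphoma nodes, against 7.21 to 9.16 in asymptomatic and 7.41 to 9.21 in FVB/N nodes, and 5.50 to 5.82 in all spleens. The spleen array of lymphoma mouse 4 is titled lymphoma but has the disease status code that other arrays use for FVB/N, and its spleen genes, at 5.76, were the lowest of the 15 spleens. The node array of asymptomatic mouse 6 had the highest spleen gene mean of all 30 arrays, at 8.41, with pancreas genes at 13.47. Fits without either array are given below.

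Lymphoma mice and asymptomatic mice answer the main question of the design, what distinguishes the tumour-bearing animals among carriers of the same transgene. In lymphoma nodes, 4 of the 10 factors were called higher and 1 lower than in asymptomatic nodes: Pou2af1, Ebf1, Pax5 and Xbp1 were higher and Bcl6 was lower. In lymphoma spleens, 2 of 10 were called higher, Pou2af1 and Prdm1, and 0 lower, with 5 of 10 at an unadjusted p under 0.05. A gene is called where the adjusted p of limma's moderated test, over all 19938 genes, is under 0.05. In the node comparison 24.1% of all genes were called, 11.6% higher and 12.5% lower, and in the spleen comparison 15.8% were called, 8.58% higher. The median fitted difference of the 10 factors was 0.68 in nodes, against -0.02 over all genes, and 0.03 in spleens, against -0.03 over all genes. The median of the 10 measured differences, that is, of the group means as deposited, was 0.01 in nodes and -0.16 in spleens. Fitted differences are adjusted for 6 surrogate variables, that is, patterns of variation across arrays. They are estimated with most weight on genes that vary without a clear difference between the groups. These patterns are not kept separate from the groups, so the adjustment can also change group differences. For several factors the fitted differences depart from the differences of the measured group means. For 2 of the factors called higher the measured difference ran the other way, at -0.45 for Xbp1 in nodes and -0.04 for Prdm1 in spleens. Without surrogate variables neither of these 2 was called. Both are given for the 10 factors in lymphoma against asymptomatic mice. The arrays hold RNA of whole organs, in which fewer cells of a type and less RNA per cell cannot be told apart.

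**Figure D1:**
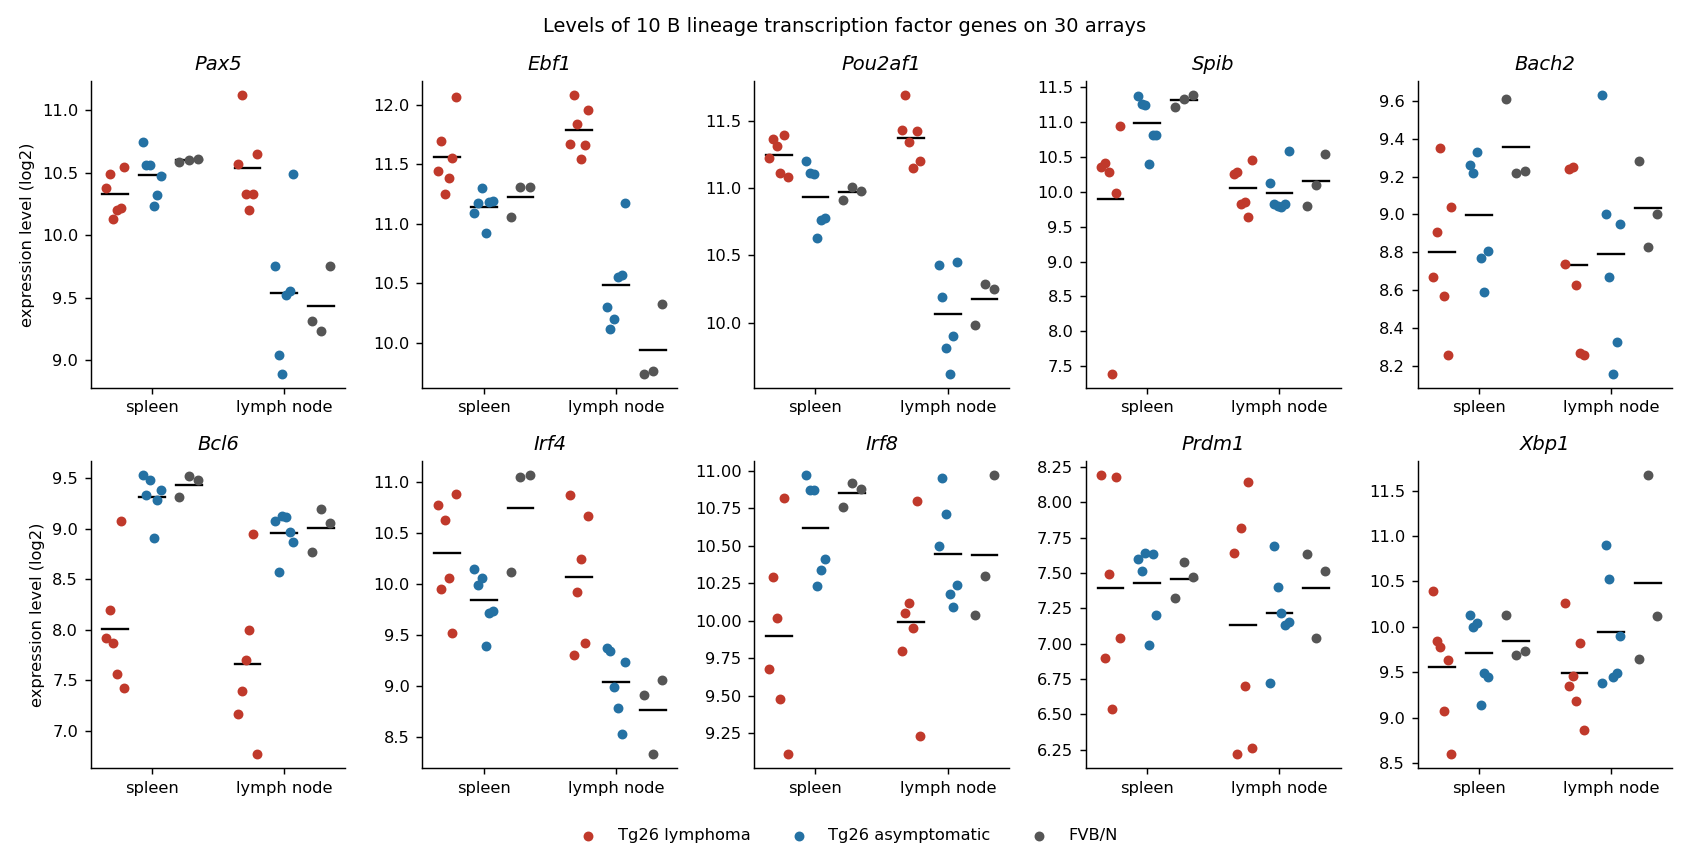
Deposited log2 level of each of the 10 factors (y axis) on the 30 arrays, in lymphoma, asymptomatic and FVB/N spleens and then nodes (x axis); each dot is 1 array and each black line a group mean. The lymphoma nodes lie above all asymptomatic nodes for Ebf1 and Pou2af1, and the spleen of lymphoma mouse 4 lies at 7.39 for Spib.

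Pou2af1, Ebf1 and Pax5 had the smallest adjusted p of the 10 factors in nodes. Pou2af1 encodes the cofactor that octamer-binding factors recruit at immunoglobulin and other B cell promoters (chr9:51213690-51240079, GRCm38). Ebf1 is the early B cell factor (chr11:44618100-45008096), and Pax5 the paired-box factor of B cell commitment (chr4:44524748-44710694, minus strand). Their promoters, 250 bases before to 50 after the RefSeq start (GRCm38.p6), are shown because these 3 genes were higher together in lymphoma nodes. Capitals mark matches to motifs of other members or their partners: GAGGAA, the core bound by PU.1 and Spi-B, and TTTCCCTTTC, the reverse strand of an interferon regulatory factor element, which is GAAA, any 2 bases and GAAA. The table holds 2 start sites for Ebf1. Windows, all read 5′ to 3′ on the gene's strand, are chr9:51213440-51213739 (plus), chr11:44617850-44618149 and chr11:44619978-44620277 (plus) and chr4:44710645-44710944 (minus). The second Ebf1 window holds TTCCTC, the reverse strand of GAGGAA.
Pou2af1 promoter: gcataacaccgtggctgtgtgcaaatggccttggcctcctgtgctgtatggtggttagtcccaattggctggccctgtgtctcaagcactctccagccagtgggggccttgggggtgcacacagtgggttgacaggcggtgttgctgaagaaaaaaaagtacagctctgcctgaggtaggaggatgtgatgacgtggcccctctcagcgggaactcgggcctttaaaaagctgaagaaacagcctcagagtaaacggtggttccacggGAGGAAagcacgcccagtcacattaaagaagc
Ebf1 promoter 1: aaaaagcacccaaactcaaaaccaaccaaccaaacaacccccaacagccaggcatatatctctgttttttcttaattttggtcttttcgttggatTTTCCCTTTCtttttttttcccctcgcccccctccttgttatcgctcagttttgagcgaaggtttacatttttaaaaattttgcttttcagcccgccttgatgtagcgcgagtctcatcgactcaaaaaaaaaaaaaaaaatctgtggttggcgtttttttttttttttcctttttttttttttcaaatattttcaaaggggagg
Ebf1 promoter 2: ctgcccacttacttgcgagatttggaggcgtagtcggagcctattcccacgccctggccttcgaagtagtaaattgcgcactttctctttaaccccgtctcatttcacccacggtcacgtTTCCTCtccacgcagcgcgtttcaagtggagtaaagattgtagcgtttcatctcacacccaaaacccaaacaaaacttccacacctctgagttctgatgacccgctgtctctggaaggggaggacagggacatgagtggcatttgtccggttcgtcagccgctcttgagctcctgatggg
Pax5 promoter: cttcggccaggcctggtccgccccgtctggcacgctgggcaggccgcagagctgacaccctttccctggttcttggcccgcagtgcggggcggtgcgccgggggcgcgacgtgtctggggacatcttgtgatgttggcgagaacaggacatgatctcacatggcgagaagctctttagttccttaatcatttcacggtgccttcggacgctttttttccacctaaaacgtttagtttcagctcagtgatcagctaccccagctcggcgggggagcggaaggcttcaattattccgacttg
Of 32851 promoter windows in the RefSeq table, 28.3% held GAGGAA and 3.44% held the interferon regulatory factor element, on either strand. The Pax5 window held none of the 6 motifs searched, the others being the EBF1 site (TCCC, any 2 bases and GGGA, in 0.904% of windows), ATGCAAAT (the octamer, in 1.74%), TTCNNNGAA (in 8.3%) and TGANTCA (in 7.81%). A match is a run of letters and not evidence of binding.

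Pou2af1 lay at 11.15, 11.38 and 11.69 (lowest, median and highest) in lymphoma nodes, at 9.62, 10.05 and 10.45 in asymptomatic nodes, and at 9.98, 10.29 and 10.25 in the 3 FVB/N nodes. Every lymphoma node was above every node of the other states. Over all genes, 5.0% had all lymphoma nodes above all asymptomatic nodes and 5.8% had all of them below. The fitted difference between lymphoma and asymptomatic nodes was 1.48 ± 0.12 (SE), a 2.79-fold higher level, with an adjusted p of 3.96e-09, and the measured means of 11.37 ± 0.19 and 10.07 ± 0.34 (SD, n = 6 each) differed by 1.31. It was 1.35 within batch A and 1.27 within batch B, and called in both. In spleens Pou2af1 lay at 11.08, 11.27 and 11.39 in lymphoma, at 10.63, 10.94 and 11.2 in asymptomatic and at 10.91, 11.01 and 10.98 in FVB/N mice. The lymphoma and asymptomatic spleens overlapped, and the fitted difference of 0.55 ± 0.11, a 1.47-fold higher level, had an adjusted p of 0.000645. The measured difference was 0.31, which was not called without surrogate variables (adjusted p = 0.113), with 0.16 in batch A and 0.47 in batch B, neither called.

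Ebf1 lay at 11.54, 11.76 and 12.08 in lymphoma nodes, at 10.12, 10.42 and 11.17 in asymptomatic nodes and at 9.74, 9.76 and 10.33 in FVB/N nodes. All lymphoma nodes were above all others, and the highest asymptomatic value was that of mouse 6. The fitted difference between lymphoma and asymptomatic nodes was 1.42 ± 0.17 (SE), 2.68-fold, with an adjusted p of 1.29e-06, and the measured difference was 1.31. In spleens the values were 11.25, 11.49 and 12.06 in lymphoma mice, against 10.92, 11.17 and 11.3 in asymptomatic mice, which overlapped. That fitted difference, 0.43 ± 0.15 with an adjusted p of 0.0597, was not called, although it was at 0.42, the measured difference, with batch as a term and no surrogate variables (adjusted p = 0.0454).

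Pax5 was measured in the 6 lymphoma nodes at 10.2, 10.45 and 11.12, in asymptomatic nodes at 8.89, 9.53 and 10.49, and in FVB/N nodes at 9.31, 9.23 and 9.75. The node of asymptomatic mouse 6, the highest of its group, reached into the range of the lymphoma nodes. The fitted difference was 1.07 ± 0.19 (SE), 2.1-fold, with an adjusted p of 0.000136, and the measured difference was 0.99. Within batch A the measured difference was 1.44 and called, and within batch B, which holds asymptomatic mouse 6, it was 0.54 with an adjusted p of 0.136. In spleens Pax5 spanned 10.13 to 10.54 in lymphoma mice and 10.23 to 10.74 in asymptomatic mice, with a fitted difference of -0.10 (95% interval -0.45 to 0.25) that was not called and a measured difference of -0.16.

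When each of the 15 mice was left out in turn, all 3 node differences were called in 15 of 15 fits, with fitted values from 1.29 to 1.73 for Pou2af1, 1.31 to 1.68 for Ebf1 and 0.86 to 1.32 for Pax5. Leaving out the arrays that hold neighbouring tissue drops 5 of 6 asymptomatic nodes and so leaves that group without replication. In that fit the differences were 1.34, 1.73 and 1.06. Without the node array of asymptomatic mouse 6 they were 1.3, 1.55 and 1.17 (adjusted p = 4.27e-07, 2.95e-07 and 6.52e-05). B cell surface and receptor genes averaged 9.16 to 10.09 in lymphoma nodes, 9.75 to 10.98 in asymptomatic nodes and 9.79 to 10.30 in FVB/N nodes. In spleens those genes averaged 8.97 to 10.47 in lymphoma, 10.77 to 11.29 in asymptomatic and 11.16 to 11.27 in FVB/N mice. The part of B cell content in the factors' differences was not tested.

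**Figure D2:**
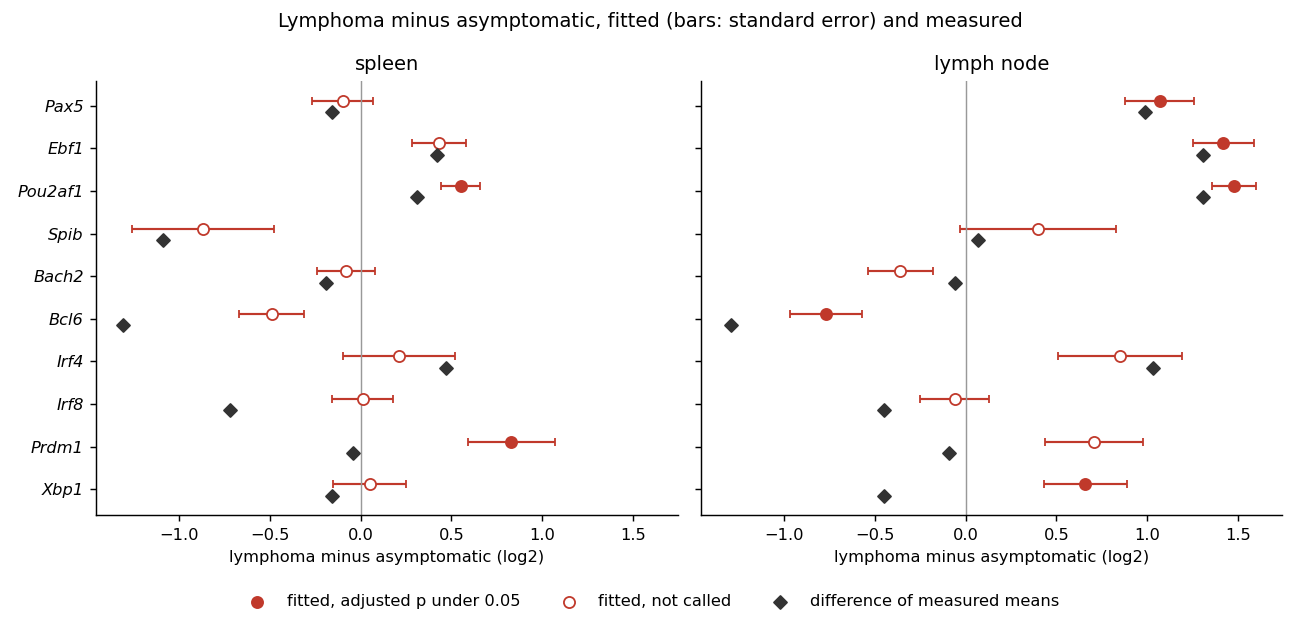
Lymphoma-minus-asymptomatic difference of each factor (x axis, log2) in spleens and in nodes; dots with bars are fitted differences with their standard errors, filled where the adjusted p is under 0.05, and diamonds are differences of the measured means. In nodes Pou2af1, Ebf1 and Pax5 stand at 1.48, 1.42 and 1.07, whereas for Bcl6, Prdm1 and Xbp1 dots and diamonds lie apart.

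Bcl6, the repressor that germinal centre B cells depend on (chr16:23965050-23988866, minus strand), had lower measured means in lymphoma mice than in both other states, in both organs. In nodes it lay at 6.77, 7.55 and 8.95 in lymphoma mice, at 8.57, 9.03 and 9.13 in asymptomatic mice and at 8.77, 9.2 and 9.06 in FVB/N mice. In spleens it lay at 7.42, 7.89 and 9.08 in lymphoma, at 8.91, 9.35 and 9.53 in asymptomatic and at 9.31, 9.52 and 9.48 in FVB/N mice. In both organs 1 lymphoma animal, mouse 5, lay within the asymptomatic range, at 9.08 in spleen and 8.95 in node, and the other 5 lay below all asymptomatic mice. The fitted node difference was -0.77 ± 0.20 (SE) with an adjusted p of 0.00542, which is 1.71-fold lower. In spleens the fitted difference of -0.49 ± 0.18 had an adjusted p of 0.0633 and was not called. The measured means differed by more, -1.29 in nodes and -1.31 in spleens, and in fits without surrogate variables both were called, with adjusted p of 0.000296 and 0.000449. Within batches the measured spleen difference was -1.45 in A (called) and -1.17 in B (not called), and the node difference -1.5 and -1.08, called in A.

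Single mice moved the Bcl6 difference. Leaving out lymphoma mouse 5 gave a fitted spleen difference of -1.57 and a node difference of -1.45, both called, whereas in nodes leaving out lymphoma mouse 1 gave -0.49, asymptomatic mouse 1 -0.40 and asymptomatic mouse 4 -0.95 (adjusted p = 0.0508), none called. Without the spleen array of lymphoma mouse 4 the spleen difference was -0.75 and called (adjusted p = 0.00207). Over the 12 lymphoma arrays, which come from 6 mice, Bcl6 and the mean of the B cell surface genes, each as a deviation from its group mean, correlated with r = 0.86, and surrogate variables 3 and 4 correlated with that B cell mean at 0.70 and 0.55 over 30 arrays. The part of B cell content in the difference was not tested. Germinal centre genes averaged 6.34 to 6.83 in lymphoma nodes and 7.06 to 8.0 in asymptomatic nodes, and 6.12 to 6.56 in lymphoma spleens against 7.09 to 7.21 in asymptomatic spleens.

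The RefSeq table holds 2 start sites for Bcl6, and both are shown because they carry TTCNNNGAA, the letters recognised by STAT factors and by BCL6 itself, which is known to bind its own gene. The first window, chr16:23981234-23981533, has 3 matches, and the second, chr16:23988803-23989102, has 1 beside a GAGGAA (both minus strand, GRCm38.p6; matches in capitals). The first Irf8 window, chr8:120736108-120736407 (plus strand), has 2 matches.
Bcl6 promoter 1: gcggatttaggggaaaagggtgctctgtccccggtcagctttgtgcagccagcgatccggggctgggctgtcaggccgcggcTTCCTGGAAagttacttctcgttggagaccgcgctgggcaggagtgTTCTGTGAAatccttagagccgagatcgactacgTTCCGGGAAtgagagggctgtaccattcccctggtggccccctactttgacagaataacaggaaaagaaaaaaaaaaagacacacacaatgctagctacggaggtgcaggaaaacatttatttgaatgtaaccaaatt
Bcl6 promoter 2: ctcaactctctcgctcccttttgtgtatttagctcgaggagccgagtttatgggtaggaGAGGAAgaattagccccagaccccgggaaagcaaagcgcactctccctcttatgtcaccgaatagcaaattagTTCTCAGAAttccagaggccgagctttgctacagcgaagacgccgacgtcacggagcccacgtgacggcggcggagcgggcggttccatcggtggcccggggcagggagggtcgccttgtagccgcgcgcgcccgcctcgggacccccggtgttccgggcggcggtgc
Irf8 promoter: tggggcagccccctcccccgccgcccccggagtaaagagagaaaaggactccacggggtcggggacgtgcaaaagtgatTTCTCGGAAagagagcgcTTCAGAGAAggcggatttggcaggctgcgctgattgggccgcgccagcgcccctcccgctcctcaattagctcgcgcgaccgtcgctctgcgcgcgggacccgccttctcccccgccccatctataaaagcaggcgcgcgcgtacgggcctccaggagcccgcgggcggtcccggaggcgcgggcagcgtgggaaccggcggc
At least 1 match was in 8.3% of all promoter windows, and among the other members in the window of Bach2 alone.

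Spib, an Ets factor of B cells and plasmacytoid dendritic cells (chr7:44525995-44532087, minus strand), was measured in lymphoma spleens at 10.36, 10.41, 10.28, 7.39, 9.98 and 10.95 in mice 1 to 6. Asymptomatic spleens were at 10.4, 11.03 and 11.37 (lowest, median, highest) and FVB/N spleens at 11.22, 11.33 and 11.39. The lymphoma and asymptomatic spleens overlapped, and all lymphoma spleens were below all 3 FVB/N spleens, as was so for 12.5% of all genes. The value of 7.39 in mouse 4 belongs to the array with the differing status code, and the node of that mouse was not low, at 9.85. With that array the fitted spleen difference against asymptomatic mice was -0.87 ± 0.39 (SE) with an adjusted p of 0.143, and without it -0.70 with an adjusted p of 0.00878, which was called. The measured difference was -1.09. Leaving out whole mice, it was called in 3 of 15 fits, and ranged from -1.10 without asymptomatic mouse 5 to 0.05 without lymphoma mouse 2. In nodes the 3 states overlapped, with 9.64 to 10.46 in lymphoma, 9.78 to 10.58 in asymptomatic and 9.8 to 10.55 in FVB/N mice, and the fitted difference of 0.40 ± 0.43, against a measured 0.07, was not called.

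Bach2, a repressor that delays plasma cell formation in B cells and is also used by T cells (chr4:32238413-32586109), overlapped between all states. It spanned 8.26 to 9.35 in lymphoma, 8.59 to 9.33 in asymptomatic and 9.22 to 9.61 in FVB/N spleens, and 8.26 to 9.25, 8.16 to 9.63 and 8.83 to 9.28 in the nodes of the same states. The fitted lymphoma-minus-asymptomatic differences were -0.08 in spleens (95% interval -0.42 to 0.26) and -0.36 in nodes (-0.73 to 0.02), and neither was called. The measured differences were -0.19 and -0.06.

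Irf4, which rises in activated B cells and plasma cells (chr13:30749233-30766981), lay in lymphoma nodes at 10.88, 9.3, 9.92, 10.25, 9.42 and 10.67 in mice 1 to 6, against 8.53, 9.11 and 9.37 (lowest, median, highest) in asymptomatic nodes and 8.91, 8.33 and 9.06 in FVB/N nodes. Mouse 2 alone, at 9.3, lay within the asymptomatic range. The fitted node difference was 0.85 ± 0.34 (SE) with an adjusted p of 0.0773 and was not called. The measured difference was 1.03, and it was called without surrogate variables and with batch as a term (adjusted p = 0.00307 and 0.00218). In spleens Irf4 was at 9.52, 10.35 and 10.89 in lymphoma, at 9.39, 9.86 and 10.15 in asymptomatic and at 10.12, 11.05 and 11.07 in FVB/N mice, and the fitted difference of 0.21 ± 0.31 from asymptomatic mice, against a measured 0.47, was not called.

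Irf8 (chr8:120736358-120756694) lay in lymphoma spleens at 9.68, 10.29, 10.02, 9.48, 10.82 and 9.11 in mice 1 to 6, against 10.23, 10.64 and 10.97 in asymptomatic spleens and 10.76, 10.92 and 10.88 in FVB/N spleens. In nodes the lymphoma mice were at 9.8, 10.05, 10.12, 9.95, 10.8 and 9.23, against 10.09 to 10.95 in asymptomatic and 10.04 to 10.97 in FVB/N mice. Mouse 5 was the highest lymphoma animal in both organs and mouse 6 the lowest. The measured means were lower in lymphoma mice by -0.72 in spleens and -0.45 in nodes, whereas the fitted differences were 0.01 ± 0.17 and -0.06 ± 0.19, neither called. Without surrogate variables the spleen difference was called (adjusted p = 0.0443), and leaving out mouse 5 gave fitted differences of -0.99 in spleens and -0.59 in nodes, both called. Genes of conventional dendritic cells, which also use Irf8, averaged 6.27 to 7.0 in lymphoma and 7.48 to 7.98 in asymptomatic spleens, and 6.23 to 7.41 in lymphoma and 7.54 to 8.34 in asymptomatic nodes. Irf8 correlated with the B cell surface genes at r = 0.79 over the 12 lymphoma arrays (deviations from group means), and the part of either cell type was not tested.

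Irf4 and Irf8 ran against each other among lymphoma mice. The correlation was -0.78 in their 6 spleens and -0.74 in their 6 nodes, with Spearman's rho of -0.83 and -0.77. Two-sided exact permutation tests gave p = 0.0667 and 0.0875, and after adjustment over the 16 tests of 8 pairs of members in 2 tissues both were 0.342. Within the batches of 3 mice r was -0.92 and -0.91 in spleens and -0.81 and -0.99 in nodes, and without the 2 mice farthest from the median of Irf4 it was -0.21 in spleens and -0.99 in nodes, so that the spleen value rested on those mice. Pooled over both organs, the deviations of the same genes from their group means correlated at -0.74 on the 12 lymphoma arrays and 0.78 on the 12 asymptomatic arrays. Each set of 12 comes from 6 mice, so its arrays are not independent. The difference between the states was not tested.

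**Figure D3:**
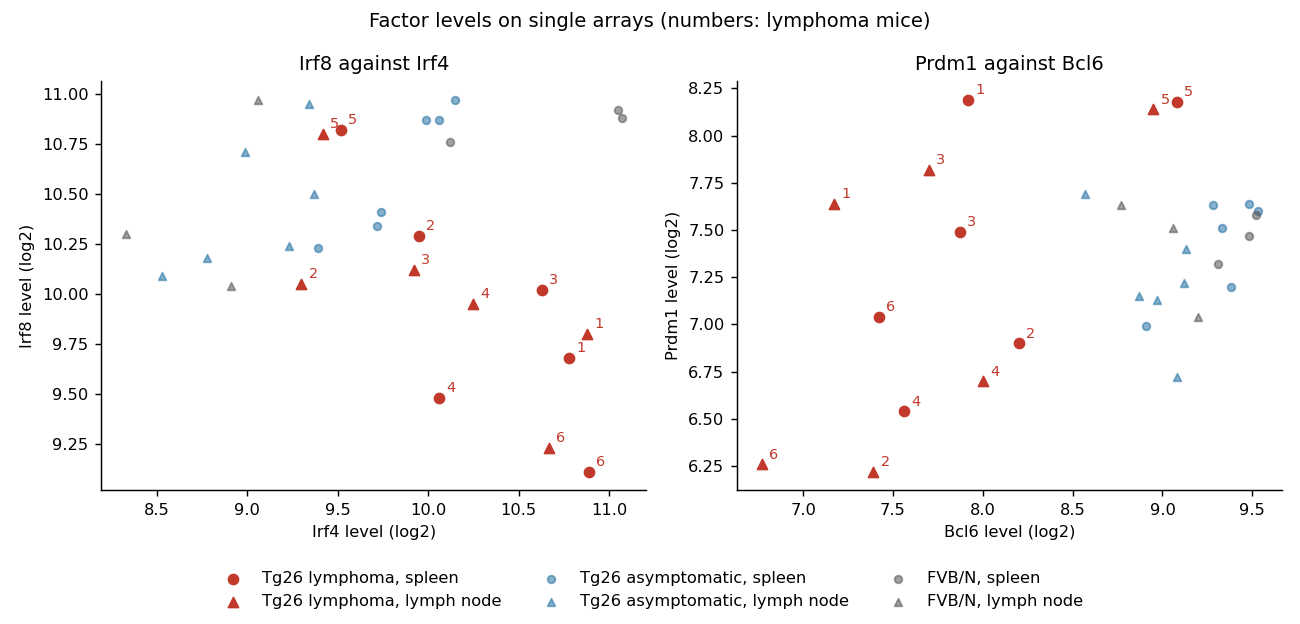
Log2 levels of Irf8 (y axis) against Irf4 (x axis) and of Prdm1 (y axis) against Bcl6 (x axis) on the 30 arrays, with the lymphoma mice numbered. Lymphoma mouse 5 combines high Irf8, Bcl6 and Prdm1 with low Irf4 in both organs, and mouse 6 combines low Irf8 and Bcl6 with high Irf4.

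Prdm1 encodes Blimp-1 (chr10:44437174-44528558, minus strand), and Bcl6 and Blimp-1 are known to repress each other's genes. In lymphoma spleens Prdm1 was at 8.19, 6.9, 7.49, 6.54, 8.18 and 7.04 in mice 1 to 6, against 6.99, 7.55 and 7.64 (lowest, median, highest) in asymptomatic and 7.32, 7.58 and 7.47 in FVB/N spleens. In nodes the lymphoma mice were at 7.64, 6.22, 7.82, 6.7, 8.14 and 6.26, against 6.72, 7.19 and 7.69 in asymptomatic mice and 7.63, 7.04 and 7.51 in FVB/N mice. Lymphoma mice lay on both sides of the other states, with an SD of 0.69 in spleens and 0.84 in nodes against 0.27 and 0.32 in asymptomatic mice. The fitted spleen difference of 0.83 ± 0.24 (SE) was called, with an adjusted p of 0.021, but the measured means of 7.39 ± 0.69 and 7.43 ± 0.27 (SD, n = 6 each) differed by -0.04, and without surrogate variables there was no call (adjusted p = 0.973). It was called in 9 of the 15 fits that left out 1 mouse, where it ranged from -0.23 without lymphoma mouse 5 to 0.96. It was 0.50 without the spleen array of lymphoma mouse 4 (adjusted p = 0.0883) and 0.05 without the node array of asymptomatic mouse 6 (0.926), and not called in either. In nodes the fitted difference was 0.71 ± 0.27 (adjusted p = 0.0601), not called, and the measured difference was -0.09. Among lymphoma mice Prdm1 and Bcl6 correlated at 0.62 in spleens and 0.61 in nodes (n = 6, adjusted exact permutation p = 0.349 for each). Pooled over both organs of 6 mice, their deviations from group means correlated at 0.61 on the 12 lymphoma and 0.03 on the 12 asymptomatic arrays. Within batch A r was -0.75 in spleens and 0.19 in nodes, and within batch B, which holds mouse 5, 0.93 in both, so that the relation did not hold within both batches.

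Xbp1, the factor of the secretory expansion of plasma cells and of exocrine glands (chr11:5520641-5525993), lay in lymphoma nodes at 8.86, 9.41 and 10.26, in asymptomatic nodes at 9.38, 10.9, 10.53, 9.45, 9.49 and 9.9 in mice 1 to 6, and in FVB/N nodes at 9.65, 11.67 and 10.12. The high values were those of asymptomatic mice 2 and 3 and FVB/N mice 2 and 3, whose nodes had salivary gland genes at 9.34, 10.40, 11.57 and 10.43, but the node of lymphoma mouse 1, at 10.26 for Xbp1, was above that of FVB/N mouse 3 with salivary gland genes at 5.58. The other nodes of the asymptomatic and FVB/N states had salivary gland genes between 5.54 and 6.06. Lymphoma nodes were at 5.58 to 5.77 for these genes, with mouse 5 at 7.85. Over the 15 nodes Xbp1 correlated with the salivary gland mean at r = 0.75 and with the mean of genes known to be activated by Xbp1 at 0.84 (deviations from group means). The part of gland tissue in the Xbp1 levels was not tested. The fitted node difference of 0.66 ± 0.23 (SE) had an adjusted p of 0.0362 and was called, but the measured means of 9.49 ± 0.49 and 9.94 ± 0.64 (SD, n = 6 each) differed by -0.45. It was called in 2 of the 15 fits that left out 1 mouse. It was 0.29 without the node array of asymptomatic mouse 6 (adjusted p = 0.431). Without the arrays that hold neighbouring tissue, which include 5 of 6 asymptomatic nodes, it was 0.61. The direction of Xbp1 in lymphoma nodes thus depends on the adjustment. In spleens Xbp1 overlapped between the states, at 8.6 to 10.39 in lymphoma, 9.14 to 10.13 in asymptomatic and 9.69 to 10.13 in FVB/N mice, with a fitted difference of 0.05 ± 0.20 and a measured one of -0.16.

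**Figure D4:**
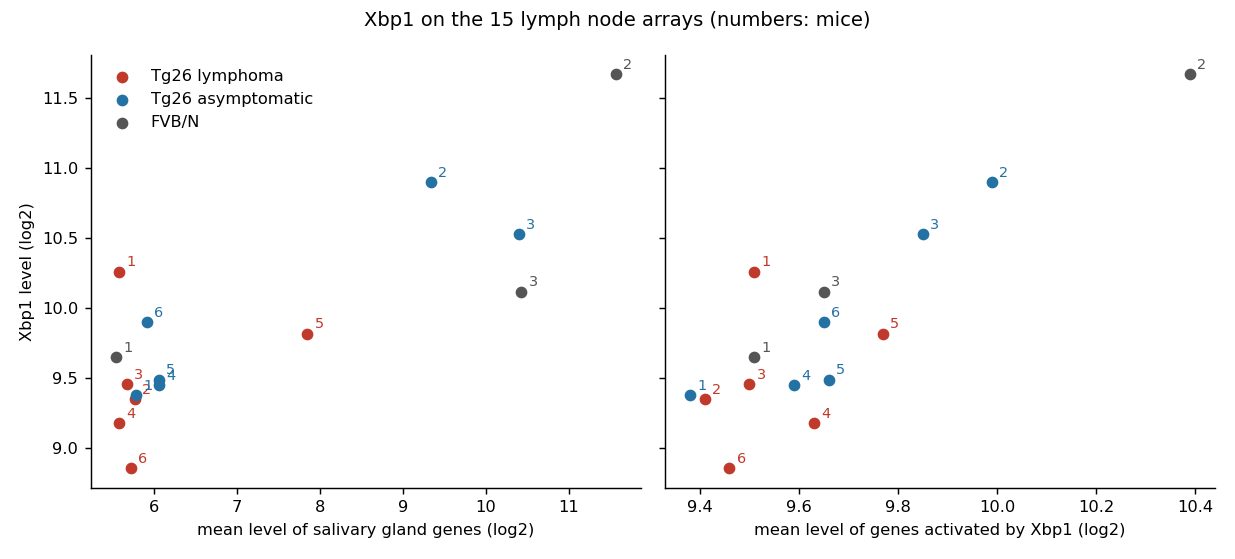
Log2 level of Xbp1 (y axis) on the 15 node arrays against the mean log2 level of salivary gland genes and of genes activated by Xbp1 (x axes), with mice numbered. The 4 nodes with salivary gland genes above 9, asymptomatic 2 and 3 and FVB/N 2 and 3, have Xbp1 at 10.9, 10.53, 11.67 and 10.12.

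The spleen result changed with the model. With the mouse number as a block and no surrogate variables, 5 of 10 factors were called in lymphoma spleens, where 25.2% of all genes were called: Pou2af1 at 0.31 (adjusted p = 0.0191) and Ebf1 at 0.42 (0.0122) were higher, and Bcl6 at -1.31 (0.000273), Spib at -1.09 (0.017) and Irf8 at -0.72 (0.0164) were lower. Mice of one number in the 2 Tg26 states are different animals that share a batch, and the batch cannot be told apart from the number in that block. Prdm1 was not among the 5. Without the node array of asymptomatic mouse 6, and with surrogate variables, 4 of 10 were called where 22.4% of all genes were. Pou2af1 at 0.33 (0.0387) and Ebf1 at 0.43 (0.0213) were higher, and Bcl6 at -1.07 (2.56e-05) and Irf8 at -0.67 (0.0231) were lower. In nodes that fit called 5 of 10, where 24.5% of all genes were called: Pou2af1, Ebf1, Pax5 and Irf4, at 0.99 (0.0467), were higher and Bcl6, at -1.34 (2.03e-05), was lower. Without the spleen array of lymphoma mouse 4, 3 of 10 were called in spleens, where 19.2% of all genes were, Pou2af1 higher at 0.51 (0.000894), and Spib and Bcl6 lower.

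Against FVB/N mice, lymphoma nodes were called higher for 4 of 10 factors, Ebf1, Pou2af1, Pax5 and Prdm1, and lower for 0, where 16.6% of all genes were called and 8.59% higher, and 7 of 10 factors had an unadjusted p under 0.05. The fitted differences were 1.72 ± 0.20 (SE) for Ebf1, with an adjusted p of 2.38e-06, 1.47 ± 0.14 for Pou2af1 (1.27e-07), and 0.89 ± 0.22 for Pax5 (0.00637). All lymphoma nodes lay above all FVB/N nodes for these 3 and for Irf4, whose difference of 1.06 ± 0.41 was not called (adjusted p = 0.0871). Over all genes 10.3% lay wholly higher in that comparison and 8.2% wholly lower. The measured differences were 1.85 for Ebf1, 1.2 for Pou2af1, 1.1 for Pax5 and 1.31 for Irf4. Prdm1 was called at 1.05 ± 0.32 (0.0277), with measured means of 7.13 ± 0.84 in lymphoma and 7.39 ± 0.31 in FVB/N nodes that run the other way. In batch A alone, the batch that holds all FVB/N mice, Ebf1, Pou2af1 and Pax5 differed by 1.92, 1.31 and 1.24 and Irf4 by 1.27, all called, Bcl6 was called at -1.59, and Prdm1 was at -0.16 with no call. Without the node array of asymptomatic mouse 6, Prdm1 was at 0.47 (adjusted p = 0.389) and Irf4, at 1.2 (0.0332), and Bcl6, at -0.85 (0.00659), were called, and without the spleen array of lymphoma mouse 4 Prdm1 was at 0.71 (0.0806).

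In spleens against FVB/N, 2 of 10 factors were called higher, Pou2af1 at 0.69 ± 0.13 (SE, adjusted p = 0.000722) and Prdm1 at 1.04 ± 0.30 (0.0218), and 0 lower, where 12.3% of all genes were called and 7.1% higher. At an unadjusted p under 0.05 there were 4. Spib and Bcl6 had measured differences of -1.42 and -1.43, with all lymphoma spleens below all FVB/N spleens, and fitted differences of -1.06 (adjusted p = 0.165) and -0.60 (0.0745) that were not called. Pax5 did not overlap either, at 10.13 to 10.54 in lymphoma and 10.58 to 10.61 in FVB/N spleens, and its fitted difference of -0.19 ± 0.21, against a measured -0.27, was not called. Over all genes 12.5% lay wholly lower in lymphoma spleens and 8.4% wholly higher. Pou2af1 and Prdm1 had measured differences of 0.28 and -0.07. Within batch A, Spib at -0.96, Bcl6 at -1.44 and Irf8 at -0.86 (adjusted p = 0.00903) were called, and Pou2af1 at 0.33 and Prdm1 at 0.07 were not. Without the spleen array of lymphoma mouse 4, 4 factors were called in this comparison, where 14.7% of all genes were: Pou2af1 and Prdm1 higher, and Spib at -0.92 and Bcl6 at -0.81 lower. Without the node array of asymptomatic mouse 6, 2 were called, where 19.3% of all genes were, Pou2af1 at 0.46 (adjusted p = 0.018) and Bcl6 at -1.17 (8.37e-05).

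Asymptomatic mice were set against FVB/N mice to see what the transgene does without a tumour. By limma, 0 of 10 factors were called in spleens, where 0.617% of all genes were called, and 0 of 10 in nodes, where 1.94% were. At an unadjusted p under 0.05 there was 1 in spleens, Irf4 with a fitted difference of -0.67 (adjusted p = 0.615), and 2 in nodes, Bcl6 at 0.41 and Irf8 at 0.65 (adjusted p = 0.0625 for Irf8). FVB/N spleens of mice 2 and 3 had Irf4 at 11.05 and 11.07, above all asymptomatic spleens, and mouse 1, at 10.12, lay within their range of 9.39 to 10.15.

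Node and spleen were then compared within each state, by the main fit, which does not pair the organs of a mouse. In lymphoma mice 0 of 10 factors were called by limma, with 0 at an unadjusted p under 0.05, where 0.0552% of all genes were called. In asymptomatic mice 3 of 10 were lower in nodes, Pax5 by -0.98 ± 0.19 (SE, adjusted p = 0.00355), Ebf1 by -0.77 ± 0.17 (0.0106) and Pou2af1 by -0.85 ± 0.12 (0.000328), where 5.62% of genes were called and 2.26% lower. With the mouse as a fixed block 5 of 10 were lower, where 19.8% of all genes were called and 9.68% lower, the same 3 with Spib at -0.99 (0.0254) and Irf4 at -0.80 (0.00265). In FVB/N mice 4 of 10 were lower in nodes, Pax5 by -0.89 ± 0.22 (0.0222), Ebf1 by -1.23 ± 0.20 (0.00119), Pou2af1 by -0.70 ± 0.14 (0.00478) and Irf4 by -1.78 ± 0.41 (0.013), where 4.27% of genes were called and 2.13% lower. Without FVB/N mouse 1 there was 1 call in asymptomatic mice and 1 in FVB/N mice, and without FVB/N mouse 2 there were 2 in FVB/N mice. Within batch B, which holds 3 asymptomatic mice, Pax5 at -0.49 and Ebf1 at -0.34 were not called and Pou2af1 at -0.73 was. Without the node array of asymptomatic mouse 6 the asymptomatic differences were -1.05 for Pax5 (0.00604), -0.87 for Ebf1 (0.00773) and -0.86 for Pou2af1 (0.00336). B cell surface and receptor genes averaged 9.57 in nodes and 9.62 in spleens of lymphoma mice, 10.08 and 11.12 in asymptomatic mice, and 9.97 and 11.23 in FVB/N mice, and the part of B cell content in these differences was not tested.

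Mouse by mouse, Pou2af1 was higher in the node than in the spleen in 6 of 6 lymphoma mice and lower in 6 of 6 asymptomatic and 3 of 3 FVB/N mice. In lymphoma mice the differences were small, from 0.03 to 0.34. By limma they were not called in the main fit (adjusted p = 0.9) or with the mouse as a fixed block (0.941). The mean node-minus-spleen difference was 0.13 ± 0.12 in lymphoma mice (SD, n = 6), -0.87 ± 0.31 in asymptomatic mice (n = 6) and -0.79 ± 0.12 in FVB/N mice (n = 3). Ebf1 was higher in the node in 5 of 6 lymphoma mice and lower in 6 of 6 asymptomatic mice, with means of 0.23 ± 0.24 and -0.66 ± 0.41, against -1.28 ± 0.29 in FVB/N mice. Pax5 was higher in the node in 5 of 6 lymphoma mice and lower in 5 of 6 asymptomatic mice, with means of 0.20 ± 0.22 and -0.94 ± 0.61, and -1.17 ± 0.27 in FVB/N mice. The groups of lymphoma and asymptomatic mice did not fall on the same side of 0 in any of the 3 means.

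**Figure D5:**
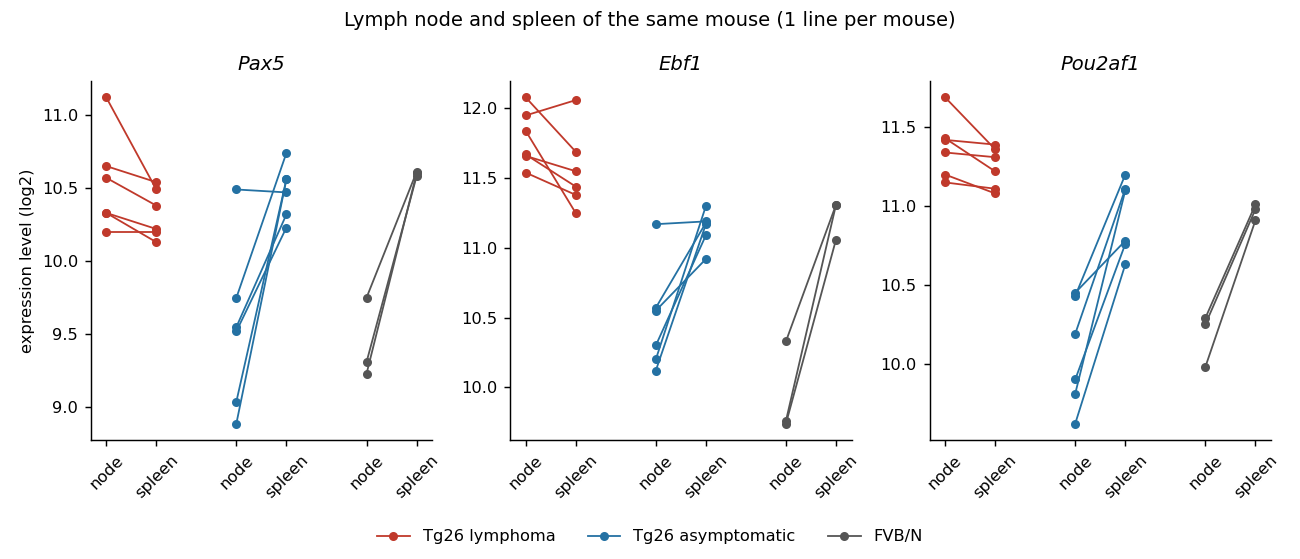
Log2 levels of Pax5, Ebf1 and Pou2af1 (y axis) in node (left) and spleen (right) of each mouse, 1 line per mouse, by state. The lines of lymphoma mice differ between the organs by at most 0.63, and those of asymptomatic and FVB/N mice run upward from node to spleen in all but 1 mouse for Pax5.

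The test of that contrast, the lymphoma-minus-asymptomatic difference in nodes minus that in spleens, called 3 of 10 factors, all higher, where 0.572% of all genes were called and 0.256% higher. The values were 1.17 ± 0.23 (SE) for Pax5 with an adjusted p of 0.0184, 0.99 ± 0.21 for Ebf1 (0.0276) and 0.93 ± 0.15 for Pou2af1 (0.00325). Within batch A they were 1.73, 1.39 and 1.19, all called, and within batch B 0.56, 0.39 and 0.80, none called. Without FVB/N mouse 1 or without asymptomatic mouse 2, 1 factor was called. They were 1.27, 1.12 and 0.97 without the node array of asymptomatic mouse 6 and 1.21, 1.08 and 0.92 without the spleen array of lymphoma mouse 4, all called. Of 189 companion genes on the lists, 4 were called higher in this contrast, Blnk and Cd79b, which carry and relay the B cell receptor signal, Vpreb3 and Mzb1, and 2 lower, Fscn1 and Tek, the second a receptor of endothelium. The lists of lymph node and endothelium genes had medians of -1.53 and -1.10 in the contrast, with 3 of 4 and 4 of 5 genes at an unadjusted p under 0.05, and their part in the members' contrast was not tested.

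Within the lymphoma group, spleen and node of a mouse tended to share their deviations. Over 6 mice Irf8 correlated between the organs at r = 0.93 (two-sided exact permutation p = 0.0125), Xbp1 at 0.89 (exact p = 0.0167) and Pax5 at 0.81 (exact p = 0.0361). After adjustment over the 10 factors these were 0.0835, 0.0835 and 0.12, and no factor passed. Spearman's rho was 0.89, 0.77 and 0.77. Without the 2 mice farthest from the median of the spleen level, r was 0.64, 0.48 and 0.81. Within the 3 mice of batch A and the 3 of batch B, r was 0.78 and 0.96 for Irf8, 0.98 and 0.99 for Xbp1, and 0.90 and 0.98 for Pax5. The other factors ranged from 0.50 for Spib to 0.83 for Prdm1, and Bcl6, at 0.77, turned to -0.74 without the 2 farthest mice. Pax5 and Ebf1 ran together among lymphoma mice, at 0.86 in spleens (exact p = 0.0139, adjusted 0.222) and 0.84 in nodes (exact p = 0.0292, adjusted 0.234), with rho of 0.94 in each, and were at 0.51 and 0.41 without the 2 farthest mice. Within batches r was 0.96 and 0.98 in spleens and 0.74 and 1.0 in nodes. Pooled over both organs of 6 mice, their deviations from group means correlated at 0.75 on the 12 lymphoma and 0.85 on the 12 asymptomatic arrays.

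The genes whose levels ran most like each factor over the 30 arrays, which share batch, organ and state, were found for each factor by Pearson's r. For Pax5 they were Tmem131l (0.92), Blnk (0.91) and Bcl11a (0.89), for Ebf1 Snx2 (0.94), Btk (0.93) and Jhy (0.92), and for Pou2af1 Blnk (0.92), Syvn1 (0.89) and Susd1 (0.89). Blnk is the adaptor and Btk the kinase of B cell receptor signalling. For Spib they were Ikzf3 (0.91), B3gnt5 (0.87) and Snap29 (0.83), for Bach2 Ypel1 (0.88), Pced1b (0.86) and Rbbp5 (0.86), and for Bcl6 Snx14 (0.94), Pxdc1 (0.93) and Slc46a3 (0.93). For Irf4 they were Cxcr4 (0.88), Pip4p1 (0.87) and Dusp5 (0.84), and for Irf8 Stk17b (0.89), Stap1 (0.86) and Tmem154 (0.86). Prdm1 had the lowest values, with Skap2 (0.74), Chst11 (0.73) and Myl4 (0.72), and Xbp1 had Pdxdc1 (0.86), Aldh7a1 (0.85) and Bscl2 (0.85).

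As deviations from the 6 group means, over the same 30 arrays, Ebf1 was among the 3 closest to Pax5 (0.81, after Tmem131l at 0.82 and beside Bcl11a at 0.81), and Pax5 was the closest to Ebf1 (0.81), followed by Bcl11a (0.80) and Vav2 (0.79). Ikzf3 stayed first for Spib (0.87), with Stxbp5 (0.85) and Rap1gap2 (0.83), and Ypel1 for Bach2 (0.88), with Rbbp5 and Zbtb26 (0.88 each). Ikzf3 encodes Aiolos, a zinc-finger factor of mature B cells. Pou2af1 had Ajm1 (0.80), Syvn1 (0.77) and H2-Ob (0.77), and Bcl6 had Snx14 (0.88), Nr2c1 (0.88) and Chst11 (0.87). Irf4 had Polm (0.79), Pdlim1 (0.78) and Dbf4 (0.76), and Irf8 had Icam1 (0.89), Stk17b (0.84) and Tmem154 (0.82). Prdm1 had Rab30 (0.85), Cysltr1 (0.85) and Serpinb6b (0.83). Xbp1 had Edem2 (0.90), Slc35b1 (0.89) and Tpd52 (0.89), of which Edem2 serves the clearance of misfolded proteins from the endoplasmic reticulum.

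The programmes that these factors are known to run were examined through lists of their target and companion genes, in lymphoma against asymptomatic mice. Differences and medians given for these lists are fitted ones. Their counts stand beside shares over all genes of 24.1% called in nodes, 11.6% higher and 12.5% lower, and 15.8% called in spleens, 8.58% higher. Of 18 measured genes activated by Pax5 or Ebf1, 8 were higher and 4 lower in nodes (median 0.95) and 4 higher and 5 lower in spleens (median 0.30). The spleen calls ran from Igll1, a surrogate light chain gene of B precursors, at 4.76 ± 0.35 (SE, adjusted p = 2.96e-09), Vpreb1 at 2.56 ± 0.23 (3.91e-08) and Cplx2 at 1.25 ± 0.15 (1.86e-06), to Cr2, a receptor for complement fragments on mature B cells, at -2.83 ± 0.33 (1.72e-06). Called higher in both organs were Igll1, Vpreb1, Cplx2 and Sdc4, and in nodes also Blnk, Bst1, Cd79a and Cd79b. Called lower in both organs were Cr2, Fcer2a, Lef1 and Cd55, and in spleens also Ikzf3. Of 10 genes repressed by Pax5, 4 were lower and 1 higher in nodes and 3 lower and 1 higher in spleens. Grap2 at -2.12 ± 0.20 and Cd28 at -2.40 in spleens are genes of T cells, and all 8 T cell genes fell in both organs, with a median of -2.66 in spleens and -3.17 in nodes. The part of T cell content was not tested.

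Of 6 genes repressed by Blimp-1, 2 were higher in nodes, Blnk at 1.62 ± 0.15 (SE, adjusted p = 2.48e-08) and Cd79a at 1.41 (1.83e-05). The transactivator of MHC class II genes, Ciita, was lower in both organs, at -1.18 in nodes and -1.62 ± 0.19 in spleens (1.49e-06). Of 7 genes repressed by Bcl6, Cd69, an early activation marker, was higher in both organs, at 1.23 in nodes and 1.16 ± 0.24 in spleens (0.00131), Cdkn1b was lower in nodes at -0.35 (0.0467), and the other 5 were not called in either. In spleens the counts for genes repressed by Blimp-1 or Bcl6 were near the share over all genes, as was the Bcl6 count in nodes. Of 13 genes activated by Xbp1, 4 were higher and 1 lower in nodes (median 0.28), and 1 higher and 1 lower in spleens (median 0.18). That spleen count was near the 15.8% called over all genes. The measured mean of these 13 genes was lower in lymphoma nodes, 9.55 against 9.69 in asymptomatic nodes, and was 9.56 against 9.48 in spleens. Pdia6, a folding enzyme of the endoplasmic reticulum, was higher at 0.53 in nodes and 0.48 ± 0.15 in spleens (0.029), and Sec24d, a coat protein of transport vesicles, was lower at -0.99 in nodes and -0.62 ± 0.16 in spleens (0.00937). Of 11 partner genes of the factors, 0 were called in spleens by limma, with 3 at an unadjusted p under 0.05. In nodes Spi1 at 1.10 (0.000246) and Atf6 at 1.02 (2.73e-05) were higher and Batf was lower, a count near the 24.1% called over all genes.

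Among 23 other transcription factors of the B lineage, 10 were higher and 7 lower in nodes (median 0.14), and 6 higher and 4 lower in spleens (median 0.09). The largest was Myb, a factor of blood precursors, at 3.42 in nodes and 3.02 ± 0.20 (SE) in spleens (adjusted p = 7.33e-10), followed by Sox4 at 2.14 in nodes and 2.55 ± 0.18 in spleens (1.23e-09). Tcf12 and Tcf3, the E proteins with which Ebf1 works, were higher by 0.66 and 0.99 in nodes and by 0.68 ± 0.12 and 0.53 ± 0.09 in spleens (0.000166 and 0.000212). Of 6 germinal centre genes, 4 were lower in both organs, Rgs13 at -2.44, Fas at -1.48, Basp1 at -0.87 and Gcsam at -0.60 in spleens, and 0 were higher. Of 7 plasma cell genes, 2 were higher in both organs, Mzb1 at 2.65 in nodes and 1.02 ± 0.19 in spleens (0.000364) and Sdc1 at 1.31 in nodes and 1.04 ± 0.28 in spleens (0.0107), and 0 were lower. The measured mean of the 7 genes was not higher in lymphoma mice, at 7.97 against 8.06 in asymptomatic nodes and 8.17 against 8.19 in spleens. Of 9 B cell surface and receptor genes, 3 were higher and 3 lower in nodes (median 0.81) and 0 higher and 3 lower in spleens (median -0.17). Their measured mean was lower in lymphoma nodes, 9.57 against 10.08 in asymptomatic nodes, and was 9.62 against 11.12 in spleens.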

How the data were processed

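Deposited log2 values of 35556 probe sets, which the authors normalised by frozen robust multiarray analysis (fRMA) per the labels' design text, were used on 30 arrays. Of the probe sets 21789 carry 1 gene symbol in the platform annotation, 1621 several, and 12146 are not listed there. The probe set with the highest mean stood for each of 19938 genes, and 999 genes had more than 1. Values span 2.07 to 14.43. The number of arrays limits the precision, and no depth applies.

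limma 3.58.1 in R 4.3.3 fitted 6 group means with 6 surrogate variables (iteratively re-weighted, 5 iterations, number from 20 permutations of residuals at a p limit of 0.1), as the design text names surrogate variable analysis. P-values were adjusted by Benjamini-Hochberg over all genes of a comparison, with a threshold of 0.05, and there were 18 residual degrees of freedom. Correlations over 6 mice were tested by exact enumeration of all 720 pairings, two-sided. The model was tested on simulated data in which far fewer genes changed than were called here between lymphoma and asymptomatic mice. That test cannot show how the surrogate variables act when many genes differ between groups. Python 3.11.15, pandas 2.3.3, scipy 1.17.1 and matplotlib 3.10.9 were used. Promoters of all 10 members came from RefSeq (GRCm38.p6).

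The members, the 25 gene lists and the tests were chosen with earlier results of these data known. From each list up to 4 genes are named, those with the smallest adjusted p for lymphoma against asymptomatic spleens, and for each member the 3 genes closest in level and the 3 closest in deviation. Other genes named in a count were chosen after their values were seen.

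Spleen and node arrays with one number and state come from one mouse, so the numbers pair them. Their deviations from group means correlated at 0.29 to 0.68 in lymphoma, 0.14 to 0.50 in asymptomatic and -0.01 to 0.05 in FVB/N mice. Same-numbered mice of different states are different animals, and in spleens of both Tg26 states they correlated at 0.23 to 0.50. Alternatives were no surrogate variables, batch as a term or as separate fits, neighbouring-tissue genes as covariates or their arrays left out, quantile normalisation, the mean of all probe sets of a gene, genes with a group mean of 7 or more, the mouse as a block, and each mouse left out in turn. Fits without the spleen array of lymphoma mouse 4 and without the node array of asymptomatic mouse 6 were chosen after seeing the data.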

Additional observations from a re-analysis of the deposited data

Results flagged for a closer look

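The Spib level of 7.39 in the spleen of lymphoma mouse 4 stood apart from the other 5 lymphoma spleens, of which the lowest was 9.98. It was the 1 value that stood apart in this way among 40 groups of 6 arrays examined, and chance gives about 1 in 20. The array carries the disease status code used elsewhere for FVB/N mice.

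The lymphoma-minus-asymptomatic difference was larger in nodes than in spleens by 1.17 for Pax5, 0.99 for Ebf1 and 0.93 for Pou2af1, by limma's test of that difference.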

How the results depend on the processing

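Of 2690 values of single factors recomputed under the alternatives, 2112 kept direction and side of the threshold, 305 changed sign or stood at 0 after rounding, with no call on either side, 155 passed the threshold newly, 89 lost it and 29 changed sign with a call on at least 1 side. The causes of the changes were not tested. The fit without neighbouring-tissue arrays left the asymptomatic nodes without replication. It is part of the counts above and of the ranges over all genes below, but is set aside in the next sentence. In the node comparison of lymphoma with asymptomatic mice, Pou2af1 and Ebf1 were called under every other alternative and Pax5 under all but batch B alone. No node-minus-spleen value changed sign in that way.

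Of the 10 factors, the number called in lymphoma against asymptomatic spleens was 2, and 4 with batch as a term, 5 with batch and neighbouring-tissue genes as covariates, 4 with the mean of all probe sets, 6 among genes with a group mean of 7 or more, 0 in batch B alone, 5 with the replicate block, 4 without the node array of asymptomatic mouse 6, and 1 (without FVB/N mouse 3) to 4 (without lymphoma mouse 2, 4 or 5, asymptomatic mouse 5 or FVB/N mouse 2) when a mouse was left out. In nodes it was 5, and 3 in batch B and 3 (without asymptomatic or lymphoma mouse 1) to 7 with a mouse left out. Against FVB/N it was 2 in spleens, and 1 with batch as a term, 4 among genes with a group mean of 7 or more, 4 without the spleen array of lymphoma mouse 4, and 1 (without FVB/N mouse 3) to 4 (without lymphoma or asymptomatic mouse 5). Leaving out 1 mouse gave 3 to 6 in nodes against FVB/N, and 0 to 1 for asymptomatic against FVB/N nodes, the 1 without FVB/N mouse 3. Between node and spleen it was 3 in asymptomatic mice, and 5 with batch as a term, 1 with batch and neighbouring-tissue genes, 5 among genes with a group mean of 7 or more, 1 in batch B, 5 with the replicate block, and 1 to 4 with a mouse left out. In FVB/N mice it was 4, and 1 to 5. For the contrast of nodes with spleens it was 3, and 1 with batch and neighbouring-tissue genes, 0 in batch B, and 1 to 3. The replicate block changed no other call count by more than 1.5 times. The number of all genes called moved as well. In lymphoma against asymptomatic spleens it was 3156 in the main fit, 4008 with batch as a term and 4680 with the covariates. It was 3582 with the mean of all probe sets, 4313 among genes with a group mean of 7 or more, and 1678 in batch B. It was 5023 with the replicate block and 4471 without the node array of asymptomatic mouse 6. Each factor has 1 probe set and a group mean of 7 or more. The mean of all probe sets and the limit of 7 thus left the factors' own values unchanged and acted through the other genes in the fit.

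Signs changed in that way for 3 factors. Irf8 in lymphoma against asymptomatic spleens was 0.01, and -0.72 without surrogate variables, with batch as a term and with the replicate block, -0.75 with batch and neighbouring-tissue genes, -0.53 among genes with a group mean of 7 or more, -0.91 in batch A, -0.67 without the node array of asymptomatic mouse 6, and -0.99 to 0.16 with a mouse left out. Prdm1 there was 0.83, and -0.04 without surrogate variables, with batch and with the replicate block, -0.03 with batch and neighbouring-tissue genes, -0.06 in batch A, -0.02 in batch B and -0.23 to 0.96 with a mouse left out. Against FVB/N Prdm1 was -0.07 in spleens without surrogate variables and -0.07 to 1.21 with a mouse left out, and in nodes -0.26 without surrogate variables, -0.15 with batch, -0.16 in batch A, -0.19 with the replicate block and -0.06 to 1.38. Xbp1 in lymphoma against asymptomatic nodes was -0.45 without surrogate variables, with batch and with the replicate block, -0.58 in batch A and -0.33 in batch B, and in spleens -0.44 among genes with a group mean of 7 or more.

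Over all genes the calls ranged from 1580 to 5087 around 3156 in lymphoma against asymptomatic spleens, from 1623 to 6537 around 4800 in nodes, from 1204 to 4495 around 2462 and 2011 to 4659 around 3304 against FVB/N, from 10 to 252 around 123 and 1 to 847 around 386 between asymptomatic and FVB/N mice, and from 0 to 229 around 11, 294 to 3953 around 1120 and 215 to 1604 around 851 between node and spleen in lymphoma, asymptomatic and FVB/N mice. For the contrast of nodes with spleens they ranged from 18 to 1179 around 114. Several of the lowest counts came from the fit without neighbouring-tissue arrays, which left asymptomatic nodes without replication. These are the counts for lymphoma against either other state and between the organs of asymptomatic mice. Quantile normalisation moved the share of higher calls by over 10 points between asymptomatic and FVB/N nodes alone, to 58.2% against 69.4%.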
